A study of Sus scrofa with 8 samples.

Results

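The genes described here serve the B cell branch of immunity: CD79A, CD79B and BLK of B cell receptor signalling, POU2AF1, MZB1, TNFRSF17 and JCHAIN, which are used by antibody-secreting cells, and PIGR, the epithelial receptor that carries antibody into a secretion. They were found by Entrez gene ID, with the transcript of the highest mean count standing for each gene. All 8 were found among the 21064 genes of the tables, as 10 transcripts, and all 8 had enough reads to be tested. The endometrium, the lining of the uterus, of 4 pregnant gilts (young female pigs) was compared with that of 4 control gilts on day 14, by RNA-seq of poly(A) RNA.

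In both groups prepuberal German Landrace gilts had been given 750 IU of PMSG and, 72 h later, 500 IU of hCG, gonadotropins that bring on follicle growth and ovulation. The pregnant group was inseminated with Pietrain semen 24 h and 36 h after hCG, and the controls were given the supernatant of centrifuged semen of the same boar. Endometrium of pregnant animals was cut from hyperemic zones, which mark embryo attachment, and that of controls from comparable places, so pregnancy and the choice of reddened zones cannot be told apart. RNA of 3 places of 1 uterine horn was pooled per animal, each library is 1 animal, and the muscle layer had been removed.

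A B cell carries its antibody on its surface, where CD79A and CD79B form the signalling pair of the receptor and BLK is a kinase that acts on it. On becoming a plasma cell it loses much of this surface apparatus and builds a large endoplasmic reticulum from which antibody is secreted. The J chain, encoded by JCHAIN, links IgA into dimers and IgM into pentamers, and PIGR binds those J chain-containing polymers on the basal side of an epithelial cell, carries them across and releases them into the lumen, as in the glands of mucosal tissues.

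Total counts ran from 28035007 to 41016150 per library. On a principal component analysis of the most variable transcripts, the leading axis (76.9% of variance) set pregnant animals apart from controls. Control replicate 4 stood apart from its group, at a score of 27.81 on this axis, beside 42.32 to 46.07 for the other controls. Where its omission was examined for a gene or a list of genes, a changed call or count is given below. Levels are given in CPM, reads scaled to equal library size. Each log2 change sets pregnant over control and stands with its SE, from edgeR's quasi-likelihood test, with p-values adjusted by Benjamini-Hochberg over all 18783 transcripts tested.

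The 4 genes of antibody-secreting cells, of which POU2AF1 also acts in B cells, were higher in pregnant endometrium. Which cells their RNA came from was not tested. CD79A, CD79B, BLK and PIGR did not pass the test. Thus 4 of the 8 genes rose and 0 fell, beside 11.2% of all transcripts that rose, 10.1% that fell and 21.3% that passed in either direction. Without pregnant replicate 2, or without any single control, 2 of the 8 rose. The median log2 change of the 8 genes was 1.304, beside −0.02 for all transcripts tested. In bulk tissue, a difference in the number of cells of a type and a difference in RNA per cell cannot be told apart.

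**Figure D1:**
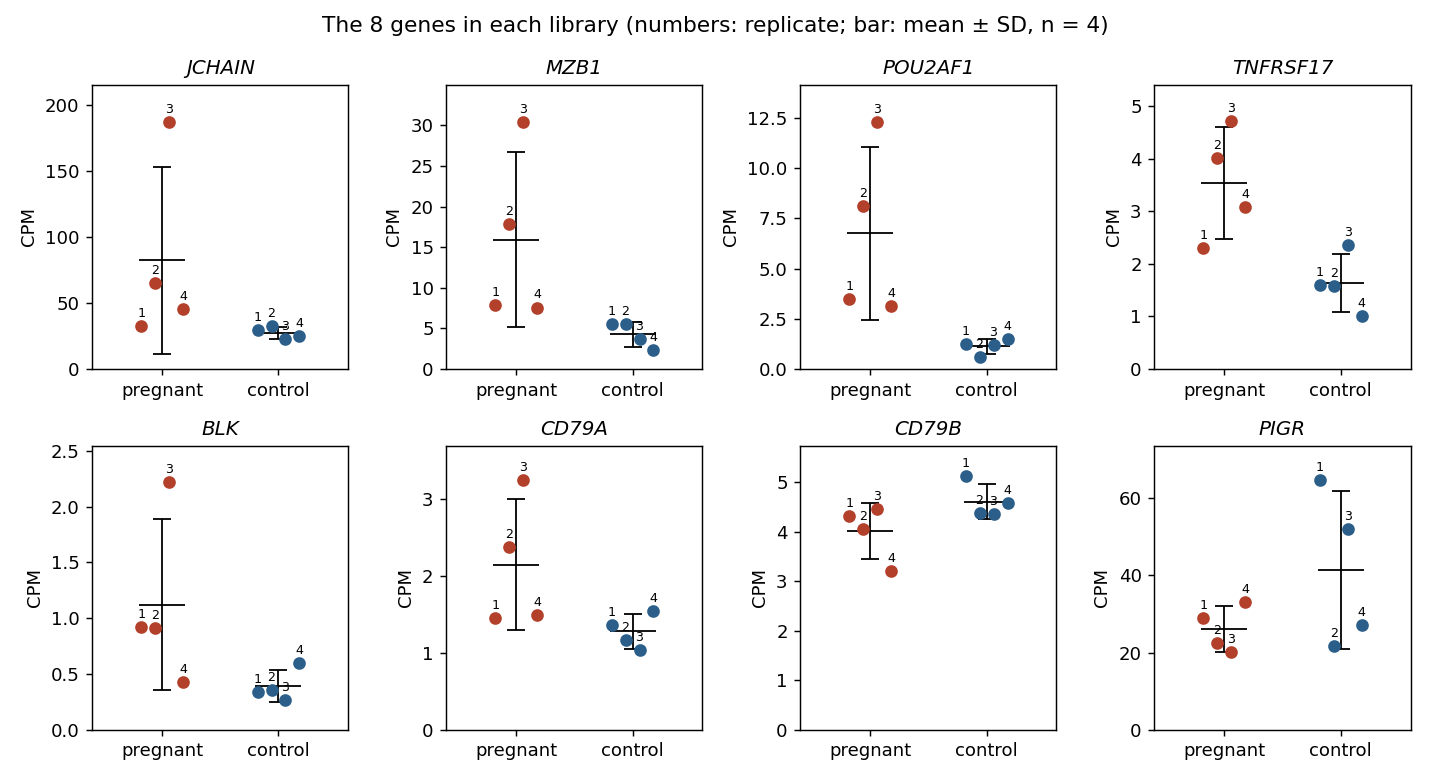
CPM of each of the 8 genes in the 4 pregnant (red) and the 4 control (blue) libraries, each point 1 animal labelled with its replicate number, with the mean and SD of each group (n = 4). POU2AF1 and MZB1 show no overlap between groups, pregnant replicate 3 is the highest point in 6 of the panels, and for PIGR control replicates 1 and 3 lie above all other animals.

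POU2AF1, a transcriptional coactivator of the octamer-binding factors in B cells, showed the largest change of the 8 genes. It had 3.47, 8.10, 12.3 and 3.14 CPM in pregnant replicates 1 to 4, against 1.22, 0.569, 1.19 and 1.49 CPM in control replicates 1 to 4 (Entrez gene 100512063, Sscrofa10.2 chromosome 9, 43842915 to 43866145, plus strand, 5 exons). All pregnant animals lay above all controls, and the pregnant animals themselves split into a high pair, replicates 2 and 3, and a lower pair, replicates 1 and 4. The mean was 6.75 ± 4.33 CPM in pregnant and 1.12 ± 0.39 CPM in control endometrium (SD, n = 4 each), a log2 change of 2.59 ± 0.48 (edgeR adjusted p = 0.00318). The gene passed in all 15 alternative analyses, with log2 changes of 2.13 to 2.83.

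MZB1, a protein of the endoplasmic reticulum that helps antibody to be assembled and secreted, followed the same order of pregnant animals. It had 7.86, 17.9, 30.4 and 7.57 CPM in pregnant replicates 1 to 4, against 5.53, 5.54, 3.68 and 2.35 CPM in control replicates 1 to 4 (Entrez gene 100522482, chromosome 2, 147108146 to 147110217, minus strand, 4 exons). The groups did not overlap, although the lowest pregnant value was close to the highest control values. The log2 change was 1.90 ± 0.47 (edgeR adjusted p = 0.0168), and only the omission of control replicate 3 among the alternatives took it past the threshold (0.0531, with a range over the alternatives from 1.05e-04). By the transcript that stands for each gene, POU2AF1 and MZB1 were thus the 2 genes of the 8 with every pregnant animal above every control. Of all transcripts tested, 13.2% had this order.

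JCHAIN was the most abundant of the 8 genes in pregnant endometrium and the most uneven between pregnant animals. It had 32.7, 64.9, 187 and 45.4 CPM in pregnant replicates 1 to 4, against 29.7, 32.8, 22.4 and 25.3 CPM in control replicates 1 to 4 (Entrez gene 100625252, chromosome 8, 71347071 to 71356401, minus strand, 4 exons). Controls lay close together, 3 of the 4 pregnant animals lay above all of them, and pregnant replicate 1 lay within their range. The mean was 82.5 ± 71 CPM in pregnant and 27.5 ± 4.61 CPM in control endometrium (SD, n = 4 each), a log2 change of 1.58 ± 0.49 that passed narrowly (edgeR adjusted p = 0.0483).

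This call for JCHAIN lay near the threshold and did not hold in every fit. Without pregnant replicate 3 the log2 change was 0.79 (edgeR adjusted p = 0.0426). The gene also passed without pregnant replicate 1 (0.0192) or 4 (0.0477). It did not pass without pregnant replicate 2 (0.0711) or without any single control (0.0692 to 0.11, with 0.0692 without control replicate 4). It also missed the threshold without the filter on low counts (0.0805), with limma voom (0.09675) and with the replicate number as a block (0.136).

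TNFRSF17, the receptor BCMA through which plasma cells receive survival signals, had 2.30, 4.02, 4.73 and 3.08 CPM in pregnant replicates 1 to 4, against 1.59, 1.59, 2.36 and 1.003 CPM in control replicates 1 to 4 (Entrez gene 100517087, chromosome 3, 32126182 to 32130378, plus strand, 3 exons). Pregnant replicate 1 lay just below control replicate 3, and the other pregnant animals lay above all controls. The log2 change was 1.11 ± 0.32 (edgeR adjusted p = 0.0301). It did not pass without pregnant replicate 2, 3 or 4 or without control replicate 1, 2 or 4 (0.0504 to 0.0863). The gene shares 86 exonic bases with LOC100739121 on the opposite strand, whose own log2 change was 0.47 ± 0.26 (adjusted p = 0.225), and without strand in the libraries the value of TNFRSF17 is uncertain. The second transcripts of TNFRSF17 and JCHAIN had log2 changes of 1.12 ± 0.32 and 1.57 ± 0.49, and reads in shared exons make them no independent measurement. In the second transcript of JCHAIN all pregnant animals lay above all controls by a small margin, 32.52 CPM in pregnant replicate 1 against 32.43 CPM in control replicate 2.

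**Figure D2:**
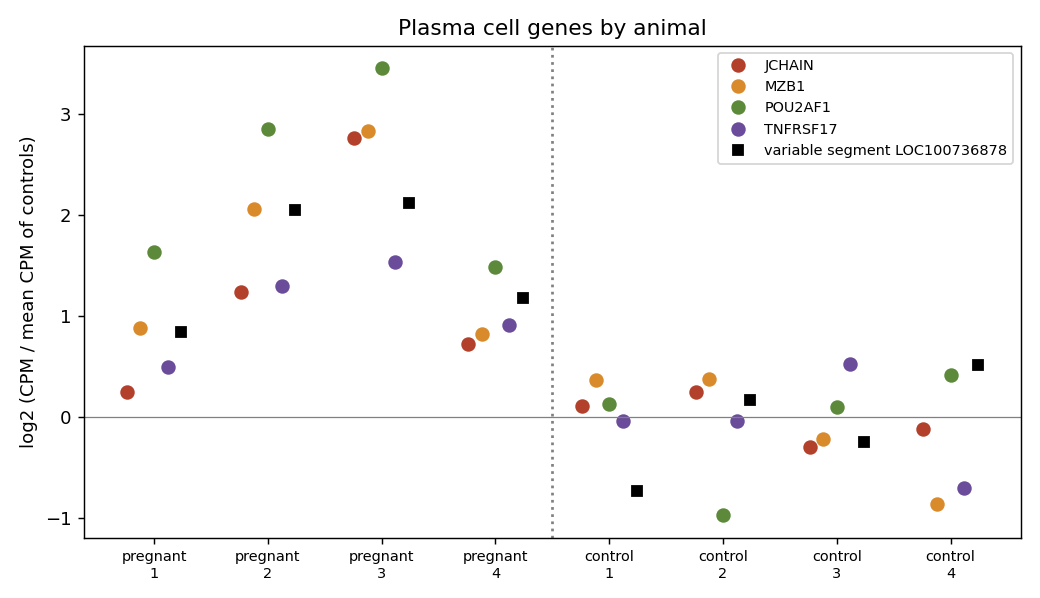
Level of 4 plasma cell genes and of the variable segment LOC100736878 in each animal, as log2 of CPM over the mean CPM of controls (a value of 0 is the control mean), with points side by side within an animal. Pregnant replicate 3 is highest for all 5, pregnant replicate 2 is next, and pregnant replicates 1 and 4 lie nearer to the controls.

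All 4 genes of antibody-secreting cells had their highest values in pregnant replicate 3 and the next in pregnant replicate 2, while replicates 1 and 4 changed places between genes. Pregnant replicate 3 had the highest value of all animals in 6 of the 8 genes, the exceptions being CD79B and PIGR. Relative to the mean of the other pregnant animals it stood 3.93-fold higher for JCHAIN, 2.94-fold for BLK, 2.74-fold for MZB1, 2.50-fold for POU2AF1, 1.83-fold for CD79A and 1.51-fold for TNFRSF17. For CD79B that ratio was 1.16, and for PIGR it was 0.712, the lowest pregnant value.

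Ratios within an animal varied less between pregnant animals than the levels did. POU2AF1 over MZB1, in CPM, was 0.441, 0.453, 0.404 and 0.415 in pregnant replicates 1 to 4, against 0.221, 0.103, 0.324 and 0.634 in control replicates 1 to 4. The ratio was thus nearly constant among pregnant animals and scattered among controls, where POU2AF1 rested on 19 to 52 reads per library. JCHAIN over MZB1 was 4.17, 3.63, 6.16 and 5.996 in pregnant replicates 1 to 4, against 5.37, 5.91, 6.07 and 10.8 in control replicates 1 to 4, with the groups overlapping.

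Among the genes of the B cell receptor, BLK had a log2 difference close to that of JCHAIN but rested on few reads. BLK had 0.920, 0.915, 2.22 and 0.427 CPM in pregnant replicates 1 to 4, against 0.339, 0.359, 0.266 and 0.602 CPM in control replicates 1 to 4, from 142 reads in pregnant and 51 reads in control libraries (Entrez gene 100623761, chromosome 14, 15915934 to 15933604, plus strand, 12 exons). Pregnant replicate 4 lay within the range of controls and the other pregnant animals above it. The log2 difference was 1.49 ± 0.51 and did not pass (edgeR adjusted p = 0.0621). It passed with DESeq2 (0.0334) and without pregnant replicate 4 (0.0318), and was 0.93 without pregnant replicate 3.

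CD79A and CD79B, whose proteins pair in the receptor, had log2 differences of opposite sign, and neither passed. CD79A had 1.45, 2.38, 3.24 and 1.49 CPM in pregnant replicates 1 to 4, against 1.36, 1.17, 1.03 and 1.55 CPM in control replicates 1 to 4 (Entrez gene 100190992, chromosome 6, 46049445 to 46052623, minus strand, 5 exons). Pregnant replicates 2 and 3 lay above all controls and the other pregnant animals among them. The log2 difference was 0.75 ± 0.32 (edgeR adjusted p = 0.128, 95% interval 0.04 to 1.45 before any adjustment) and 0.48 without pregnant replicate 3.

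CD79B had 4.32, 4.05, 4.47 and 3.20 CPM in pregnant replicates 1 to 4, against 5.12, 4.37, 4.35 and 4.58 CPM in control replicates 1 to 4 (Entrez gene 100511898, chromosome 12, 15044393 to 15047828, plus strand, 6 exons). It was the steadiest of the 8 genes, with a highest pregnant value 1.39 times the lowest and a highest control value 1.18 times the lowest. The log2 difference was −0.20 ± 0.19 (edgeR adjusted p = 0.488), with a 95% interval of −0.62 to 0.21. The ratio of CD79A to CD79B was 0.336, 0.587, 0.726 and 0.467 in pregnant replicates 1 to 4, against 0.265, 0.267, 0.237 and 0.337 in control replicates 1 to 4. The ranges of this ratio meet at pregnant replicate 1 and control replicate 4.

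PIGR had its highest levels in controls, with a wide spread among them. It had 28.9, 22.6, 20.1 and 33.04 CPM in pregnant replicates 1 to 4, against 64.7, 21.7, 52.1 and 27.0 CPM in control replicates 1 to 4 (Entrez gene 397315, chromosome 9, 73889669 to 73897725, plus strand, 8 exons). Pregnant animals lay within a narrow band, while control replicates 1 and 3 lay above all of them and control replicates 2 and 4 within that band. The mean was 26.1 ± 5.93 CPM in pregnant and 41.4 ± 20.4 CPM in control endometrium (SD, n = 4 each). The log2 difference of −0.66 ± 0.33 did not pass (edgeR adjusted p = 0.18, 95% interval −1.38 to 0.06). It ran from −0.87 to −0.34 over the alternatives, the smallest without control replicate 1, with adjusted p of 0.0577 to 0.502.

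**Figure D3:**
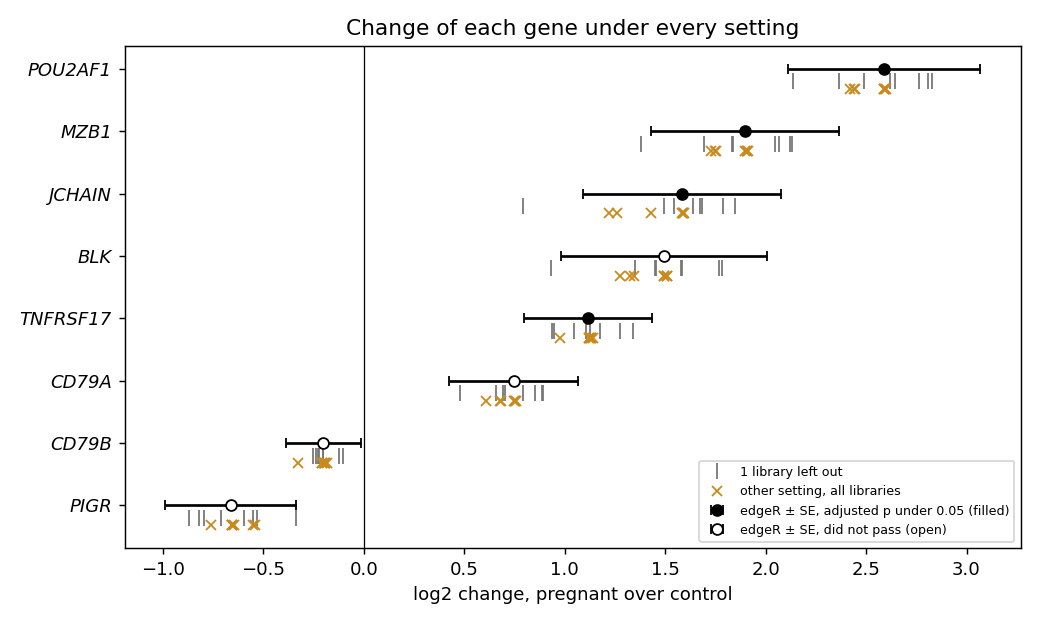
Log2 change of each gene, pregnant over control, with SE (black, filled where the edgeR adjusted p was under 0.05, open where it was not), after leaving out each library in turn (grey ticks) and under the other settings (orange crosses). POU2AF1 stays between 2.13 and 2.83, JCHAIN has its lowest value, 0.79, without pregnant replicate 3, and PIGR stays below 0 throughout.

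Scaled by the exon length of the annotated transcript, the order of the genes by group mean differed between groups. In pregnant endometrium JCHAIN led with 53.6 CPM per kb, followed by MZB1 (19.9), PIGR (13.0), POU2AF1 (6.28), TNFRSF17 (3.96), CD79B (3.22), CD79A (3.19) and BLK (0.707). In controls PIGR led with 20.5 CPM per kb, followed by JCHAIN (17.9), MZB1 (5.34), CD79B (3.70), CD79A (1.90), TNFRSF17 (1.83), POU2AF1 (1.04) and BLK (0.247). By group mean, PIGR thus stood behind JCHAIN and MZB1 in pregnant animals and ahead of both in controls. POU2AF1 stood above the CD79 genes in pregnant animals and below them in controls, and BLK was last in both groups. Not every animal had this order. PIGR was ahead of MZB1 in pregnant replicates 1 and 4, and ahead of JCHAIN only in control replicates 1 and 3. In pregnant replicate 1 POU2AF1 was below CD79B.

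Wider lists of B cell genes were chosen for this comparison with earlier results of the same data known. Of 24 B cell genes 16 were matched and 13 tested, of which 6 rose, 0 fell and 7 did not pass, with a median log2 change of 1.35 beside −0.02 for all transcripts tested. Over all transcripts, 11.2% rose. Outside the genes described above, 9 B cell genes were tested and 5 rose, with a median of 1.35. Besides POU2AF1, those that rose were CD40, BLNK, CD72, SPIB and BANK1. CD40, the receptor through which T cells activate B cells, had 35.8 ± 4.13 CPM in pregnant and 7.91 ± 0.881 CPM in control endometrium (log2 change 2.18 ± 0.15, edgeR adjusted p = 9.41e-06). The B cell adaptor BLNK had 19.7 ± 3.92 CPM in pregnant and 5.68 ± 1.48 CPM in control endometrium (1.79 ± 0.22). The inhibitory receptor CD72 rose by 2.29 ± 0.31, from a gene model that shares exonic bases with another gene, the transcription factor SPIB by 2.45 ± 0.44 and the scaffold protein BANK1 by 1.35 ± 0.32. CD40, BLNK and SPIB are also used by macrophages, epithelium or dendritic cells.

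Reads of other B cell markers were sparse, and 3 genes of the list had too few to be tested, while the receptor chains CD79A and CD79B were measured at the levels given above. MS4A1, which encodes CD20, had 61 reads in the 4 pregnant and 14 in the 4 control libraries, PAX5, the factor of B cell identity, 21 in pregnant and 12 in control libraries, and FCER2 2 in pregnant and 0 in control libraries. The summed level of the 16 matched B cell genes was 87.2 to 119.9 CPM in pregnant animals and 40.3 to 49.9 CPM in controls.

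Of 18 tested plasma cell genes 6 rose, 2 fell and 10 did not pass, with a median log2 change of 0.38. When 1 library was left out 4 to 6 rose, with 4 without pregnant replicate 2 or without control replicate 1, 2 or 3. In all libraries the picture was as follows. The rises were those of POU2AF1, MZB1, JCHAIN and TNFRSF17, and of PRDM1 and ELL2. PRDM1, the repressor Blimp-1 that drives plasma cell differentiation and also acts in T cells and epithelium, had 29.5 ± 4.47 CPM in pregnant and 13.2 ± 3.3 CPM in control endometrium (log2 change 1.16 ± 0.20, edgeR adjusted p = 0.00192). ELL2, an elongation factor that favours secreted antibody transcripts, rose by 0.98 ± 0.18. SDC1, the surface proteoglycan CD138 of plasma cells and of epithelium, fell to 24.4 ± 1.9 CPM in pregnant animals, against 69.9 ± 27.8 CPM in controls (log2 change −1.52 ± 0.25, adjusted p = 0.00167). The signal peptidase subunit SEC11C fell by 0.94 ± 0.15 on the log2 scale. XBP1, the factor that expands the secretory apparatus, did not pass (0.18 ± 0.17, adjusted p = 0.473). Outside the 4 genes described above, 14 plasma cell genes were tested, with 2 higher, 2 lower and a median log2 change of 0.19. Of all transcripts, 21.3% passed in either direction.

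Variable segments of antigen receptors offered a separate view of lymphocyte transcripts. The RefSeq table marks 8 genes of the files as such segments without naming the chain. Which belong to an antibody and which to a T cell receptor was not settled here. They were chosen after their values were seen. Of 5 that could be tested 3 rose, beside 11.2% of all transcripts. LOC100736878 had 125, 288, 301.5 and 157 CPM in pregnant replicates 1 to 4, against 41.8, 78.3, 58.6 and 99.4 CPM in control replicates 1 to 4 (chromosome 3, 59880796 to 59935649; log2 change 1.65 ± 0.34, edgeR adjusted p = 0.00653). All pregnant animals lay above all controls, and replicates 2 and 3 were again the high pair. LOC100736718 on chromosome 3 (1.94 ± 0.59, adjusted p = 0.043) and LOC100625492 on chromosome 7 (1.84 ± 0.47, adjusted p = 0.0186) also rose. LOC100623458 on chromosome 14 (0.80 ± 0.66, adjusted p = 0.427) and LOC100523619 on chromosome 7 (1.19 ± 0.49, adjusted p = 0.111) did not pass. Segments of one locus are similar in sequence, so the reads of a single one are uncertain.

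Markers of other leukocytes rose in the same animals. Of tested markers, 8 of 9 for T cells, 10 of 11 for natural killer and cytotoxic cells, 10 of 12 for macrophages and dendritic cells, 4 of 5 for plasmacytoid dendritic cells and 8 of 8 pan-leukocyte genes were higher in pregnant endometrium, with median log2 changes of 1.42, 1.66, 1.57, 1.79 and 1.68. The share over all transcripts was 11.2% higher. The macrophage receptor MRC1 was the one marker of these lists that fell (−0.77 ± 0.22, edgeR adjusted p = 0.0295), and it did not pass in 5 of the 8 fits that left out 1 library, among them that without control replicate 4 (0.0721). The summed levels of all these lists, and of the B cell list, were highest in pregnant replicate 3 and next highest in pregnant replicate 2, the order seen for the 4 genes of antibody-secreting cells. POU2AF1 is itself part of the B cell sum, so its order and that of this sum are not independent. The summed plasma cell list had another order, with 1791, 1686, 1662 and 1629 CPM in pregnant replicates 1 to 4. It overlapped with controls, which had 1501 to 1942 CPM. The summed level of the pan-leukocyte genes was 442 to 585 CPM in pregnant animals and 151 to 228 CPM in controls. The plasmacytoid list shares BLNK and SPIB with the B cell list, and its summed level was 171 to 406 CPM in pregnant animals and 50.5 to 72.7 CPM in controls. The part of these cells in the changes of the B cell and plasma cell genes was not tested.

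Set against 1000 CPM of the pan-leukocyte genes, a scaling added after the values were seen and given without a test, the genes other than PIGR took another order. JCHAIN was at 74.1, 117.6, 320 and 83.4 in pregnant replicates 1 to 4, against 130.05, 217, 130.4 and 117.8 in control replicates 1 to 4. Pregnant replicates 1, 2 and 4 thus lay below every control, replicate 2 by a small margin, and replicate 3 above every control. POU2AF1 was at 12.3 ± 6.92 in pregnant and 5.75 ± 1.52 in control animals, and MZB1 at 29.0 ± 17.3 in pregnant and 23.3 ± 10.6 in control animals (SD, n = 4 each). CD79B was at 7.66 ± 1.601 in pregnant and 24.5 ± 3.44 in control animals, and CD79A at 3.97 ± 1.23 in pregnant and 6.72 ± 0.898 in control animals. For CD79A and CD79B all pregnant animals lay below all controls on this scale, whose denominator itself did not overlap between groups while the CPM of both genes did. POU2AF1, MZB1, TNFRSF17 and BLK overlapped between groups on it.

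**Figure D4:**
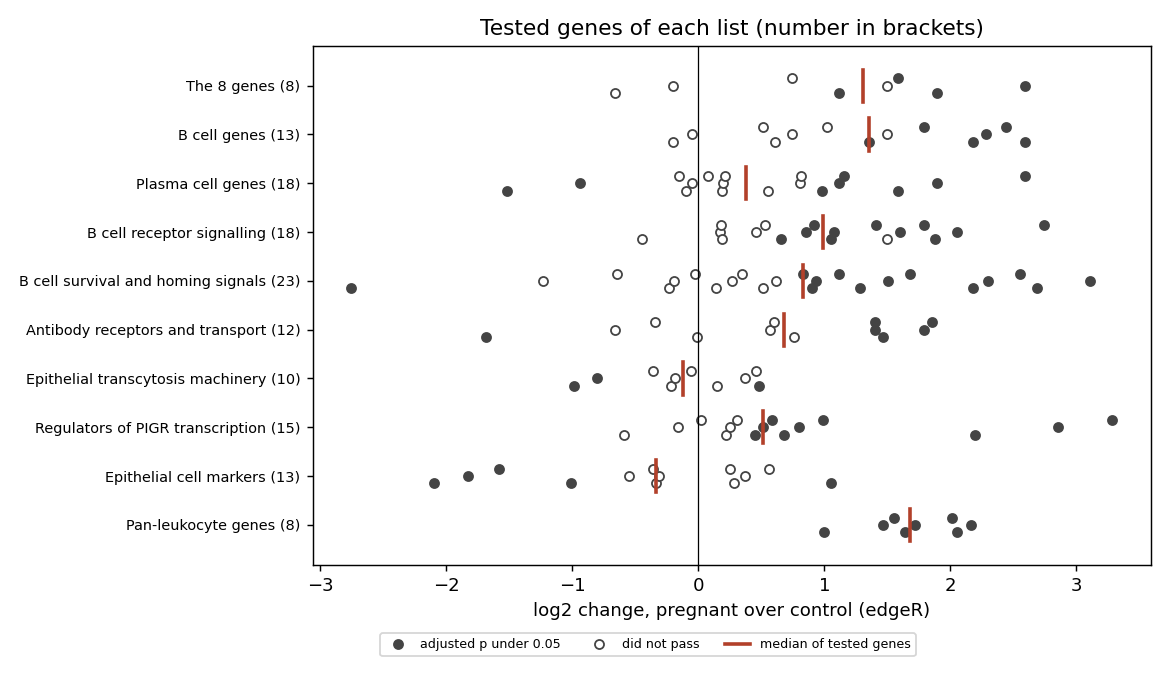
Log2 change of every tested gene of each list, pregnant over control, filled where the edgeR adjusted p was under 0.05 and open where it was not, with the median of the list in red and the number of tested genes in brackets. The 8 pan-leukocyte genes are all filled and above 0 (median 1.68), plasma cell genes centre on 0.38, and epithelial transcytosis (−0.12) and epithelial cell markers (−0.34) have medians below 0.

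Genes that relay the signal of the B cell receptor were mostly higher in pregnant endometrium. Of 18 tested B cell receptor signalling genes 11 rose, 0 fell and 7 did not pass, with a median log2 change of 0.99. Over all transcripts, 11.2% rose and 10.1% fell. BLK is part of this list, and without it 11 of 17 rose, with a median of 0.92. The protein kinase PRKCB rose by 2.75 ± 0.35, the adaptor DAPP1 by 1.88 ± 0.25 and the phosphatase PTPRC, which is CD45 and present on all leukocytes, by 2.05 ± 0.24 (edgeR adjusted p = 3.34e-04, 4.45e-04 and 2.19e-04). These genes also act in other leukocytes, whose markers rose in the same animals.

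Of 23 tested genes for survival and homing of B cells and plasma cells 12 rose, 1 fell and 10 did not pass, with a median log2 change of 0.83. When 1 library was left out 8 to 10 rose, with 8 without pregnant replicate 2 or 3. The shares over all transcripts were 11.2% higher and 10.1% lower. TNFRSF17 is part of this list, and without it 11 of 22 rose, with a median of 0.72. TNFSF13B, the survival factor BAFF that also binds the receptor TNFRSF17, had 3.33, 6.74, 7.51 and 8.39 CPM in pregnant replicates 1 to 4, against 0.746, 0.539, 0.863 and 0.859 CPM in control replicates 1 to 4 (log2 change 3.11 ± 0.33, edgeR adjusted p = 1.11e-04). The groups were far apart, and pregnant replicate 4, which was low for POU2AF1 and MZB1, had the highest level. CD40LG, the T cell ligand of CD40, rose by 2.55 ± 0.52 from 105 reads in pregnant and 17 in control libraries, and the cytokine IL10 rose by 1.502 ± 0.32. TGFB1, a cytokine that promotes the switch to IgA, rose by 0.90 ± 0.14.

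Homing signals moved in different directions. VCAM1, an adhesion molecule of vessel walls, had 135 ± 40.6 CPM in pregnant and 42 ± 8.66 CPM in control endometrium (1.68 ± 0.24), and ITGA4, a chain of its integrin receptor on leukocytes, rose by 2.30 ± 0.33 (edgeR adjusted p = 7.52e-04 and 7.63e-04). The chemokine receptor CCR7 of lymphoid homing rose by 2.69 ± 0.50. CXCR4 (0.83 ± 0.25), IL6R (0.93 ± 0.26) and IL21R (1.29 ± 0.39) rose too, with edgeR adjusted p of 0.0288 to 0.0373, and each lost the call in 6 or 7 of the 15 alternatives. Without control replicate 4 the adjusted p was 0.0536 for CXCR4 and 0.0659 for IL21R. CXCL12, the ligand of CXCR4 (0.61 ± 0.27, adjusted p = 0.131), and CXCL13 with its receptor CXCR5 (0.35 ± 0.47 and 0.51 ± 0.31) did not pass, nor did CCL19, CCL21, CCL25, IL6 and TGFBR2.

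CCL28, a mucosal chemokine that draws IgA-secreting plasma cells through the receptor CCR10, was the gene of this list that fell. It had 0.177, 0.627, 2.71 and 2.07 CPM in pregnant replicates 1 to 4, against 6.04, 16.0, 13.5 and 2.32 CPM in control replicates 1 to 4. Pregnant replicate 3, the animal with the most JCHAIN, lay above control replicate 4 and was the highest of its group. The log2 change of −2.76 ± 0.79 (edgeR adjusted p = 0.0349) did not pass in 8 of the 15 alternatives, with adjusted p of up to 0.0893. CCR10 was at a log2 difference of 0.14 ± 0.49 (adjusted p = 0.875), a sign that turned under several settings, among them the omission of control replicate 4.

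Beside PIGR, 11 other antibody receptors and their partners were tested, of which 5 rose, 1 fell and 5 did not pass, and the median of all 12 was 0.68. Over all transcripts, 11.2% rose and 10.1% fell. FCGRT, the neonatal Fc receptor that carries IgG across cells, had 224, 213, 188 and 164 CPM in pregnant replicates 1 to 4, against 299, 221, 239 and 245 CPM in control replicates 1 to 4. Pregnant replicate 1 lay just above control replicate 2, and the other pregnant animals lay below all controls. The log2 difference of −0.35 ± 0.14 did not pass (edgeR adjusted p = 0.104), and passed when only library totals were used for scaling (0.0172). Its partner chain B2M, which also serves all class I molecules, rose by 1.79 ± 0.24 (adjusted p = 4.48e-04), from a gene model that shares exonic bases with another.

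Receptors of leukocytes and of the cytosol were among those that rose. FCER1G, the signalling chain of several Fc receptors, rose by 1.85 ± 0.24 and TRIM21, a cytosolic antibody receptor, by 1.404 ± 0.19 (edgeR adjusted p = 3.99e-04 and 5.28e-04). The IgG receptor FCGR1A rose by 1.402 ± 0.41 (0.033) and the transferrin receptor TFRC, which also binds polymeric IgA1 in human cells, by 1.47 ± 0.40 (0.027), and they lost the call in 6 and 4 of the 15 alternatives, FCGR1A also without control replicate 4 (0.0603). The number of rises in this list was 3 without control replicate 2 or 3. LGALS3, an IgE-binding lectin, fell to 161 ± 10.9 CPM in pregnant animals, against 519 ± 70.3 CPM in controls (log2 change −1.69 ± 0.13, adjusted p = 1.69e-05). The inhibitory receptor FCGR2B (0.60 ± 0.27) and the IgM receptor FCMR (0.76 ± 0.32) did not pass, and FCMR passed without control replicate 1 (0.0251). FCAMR, a receptor for IgA and IgM whose model shares exonic bases with another gene, was at −0.01 ± 0.38, with a sign that turned under several settings, among them the omission of control replicate 1 or 3.

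The machinery of transcytosis, by which PIGR crosses an epithelial cell, showed calls in both directions. Of 10 tested genes 1 rose, 2 fell and 7 did not pass, with a median log2 change of −0.12. Over all transcripts, 11.2% rose, 10.1% fell and 21.3% passed in either direction. The motor MYO5B fell to 64.2 ± 5.48 CPM in pregnant animals, against 112 ± 6.88 CPM in controls (log2 change −0.81 ± 0.11), and its epithelial partner RAB25 to 23.6 ± 3.59 CPM, against 46.8 ± 10.4 CPM in controls (−0.99 ± 0.17; edgeR adjusted p = 4.92e-04 and 0.00246). RAB11A, a related GTPase of recycling endosomes, rose by 0.48 ± 0.13 (adjusted p = 0.0221), and lost the call in 4 of the 15 alternatives, among them without pregnant replicate 3 or 4 or control replicate 3.

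Epithelial markers moved in both directions in the same animals. Of 13 tested, 1 rose (CLDN4, by 1.06 ± 0.20) and 4 fell, the keratins KRT8 (−2.10 ± 0.19), KRT18 (−1.58 ± 0.18) and KRT19 (−1.83 ± 0.30) and the splicing factor ESRP1 (−1.01 ± 0.15). Over all transcripts, 11.2% rose and 10.1% fell. EPCAM was at 116 ± 20.6 CPM in pregnant and 144 ± 43.8 CPM in control endometrium (edgeR adjusted p = 0.315). The summed level of the epithelial markers was 2135 to 2865 CPM in pregnant animals and 2695 to 4048 CPM in controls. The part of epithelial content in the levels of PIGR was not tested.

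Genes known to act on PIGR transcription were mostly higher in pregnant endometrium, where PIGR itself did not pass. Of 15 tested, 9 rose, 0 fell and 6 did not pass, with a median log2 change of 0.51. The share over all transcripts was 11.2% higher and 10.1% lower. IRF1, an interferon-induced factor that acts on the PIGR gene in human cells, had 467 ± 100.2 CPM in pregnant and 47.8 ± 6.65 CPM in control endometrium (log2 change 3.29 ± 0.19, edgeR adjusted p = 4.25e-06). The cytokines TNF (2.85 ± 0.51) and IL1B (2.20 ± 0.45) and the factor IRF2 (0.99 ± 0.18) rose too. For TNF the log2 change was 3.45 without control replicate 1.

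The neighbourhood of PIGR on chromosome 9 was examined within 200 kb on either side, after the values were seen. An unnamed gene (Entrez gene 100738775, 73959120 to 73980652), 61.4 kb downstream, had 1.75 to 1.89 times as many reads as PIGR in every library. It had 1522, 1533, 1112 and 1891 reads in pregnant replicates 1 to 4, against 3445, 1298, 2968 and 1684 reads in control replicates 1 to 4. Its log2 difference was −0.68 ± 0.33 (edgeR adjusted p = 0.176), and its profile over the 8 libraries differed from that of PIGR by 0.0303 log2 units on average. The deposited annotation lists the 2 as separate genes, and whether they are pieces of 1 gene was not tested, so the level and rank of PIGR per kb hold for its annotated model of 2018 exonic bases only.

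IL24, a cytokine gene 105 kb downstream of PIGR, had 5, 12, 14 and 10 reads in pregnant replicates 1 to 4, against 778, 105, 1099 and 11 reads in control replicates 1 to 4. Control replicates 1 and 3, the high animals for PIGR, were also highest for IL24, and control replicate 4 lay among the pregnant animals. The log2 change was −5.69 ± 1.303 (edgeR adjusted p = 0.0141). It did not pass with limma voom (0.274) or without pregnant replicate 1 or 4 (0.0537 and 0.0567), and was −6.10 without control replicate 4 and −4.96 without control replicate 3. IL10, 127 kb upstream, rose as given above, and FCAMR and FCMR, 8.10 and 89.6 kb downstream, did not pass. Another unnamed gene (Entrez gene 100739302, 73905828 to 73932570) starts at the same position as FCAMR on the same strand, and its reads cannot be fully told apart from those of FCAMR. It had 26, 45, 32 and 67 reads in pregnant replicates 1 to 4, against 17, 4, 11 and 8 reads in control replicates 1 to 4, and rose by 2.02 ± 0.48 (edgeR adjusted p = 0.0128). All pregnant animals lay above all controls in CPM.

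**Figure D5:**
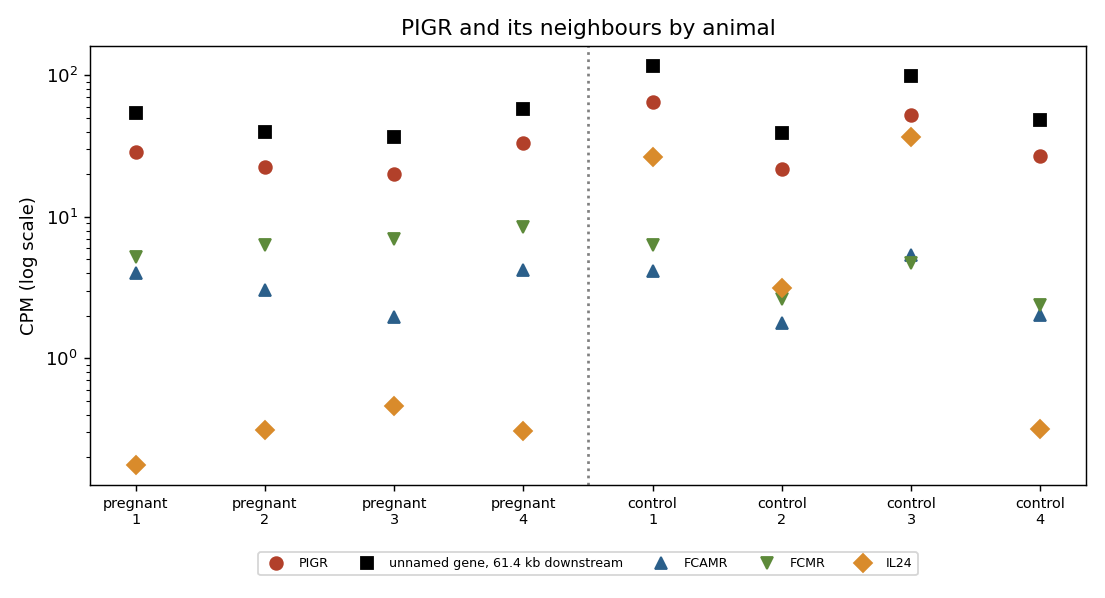
CPM on a log scale of PIGR, of the unnamed gene 61.4 kb downstream, and of FCAMR, FCMR and IL24 in each animal. The unnamed gene runs in parallel above PIGR in all 8 libraries, and IL24 is high in control replicates 1 and 3, lower in control replicate 2, and at 11 reads in control replicate 4.

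The genes with the profile most like that of each marker were taken from 10218 named genes with an average log2 CPM of at least 1. They were ranked by the mean absolute difference of centred log2 CPM over the 8 libraries. For JCHAIN they were the DNA sensor MB21D1 (0.243), the interferon-induced ligase HERC5 (0.276), the macrophage receptor CD14 (0.292), MZB1 (0.297) and DERL3 of the endoplasmic reticulum (0.307). For PIGR they were HP, which encodes haptoglobin (0.189), RNF183 (0.204), BEX3 (0.205), GFI1B (0.212) and ARHGAP44 (0.214). MZB1, itself one of the 8 genes, thus stood among the nearest profiles to JCHAIN. None of the 8 stood among those nearest to PIGR, although genes below the cutoff on level, such as BLK, could not be listed.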

How the data were processed

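Raw read counts of each transcript in 8 libraries were deposited by the authors, with exon positions on Sscrofa10.2. TopHat 1.4, Cufflinks 1.3, CASAVA 1.6 and DESeq are named in the submitters' processing notes. The counting tool is not given in the sources used here. RNA integrity numbers were 7.0 to 8.8, and the kit does not mark strand. Isoforms share reads. Gene symbols came from a RefSeq table of Sscrofa11.1, used for names only: 16270 of 21064 genes matched by ID and 103 by accession.

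The main test was the robust quasi-likelihood test of edgeR 4.0.16 (R 4.3.3), with TMM scaling, group as the only term and filterByExpr at a count of at least 10, with Benjamini-Hochberg adjustment over 18783 transcripts and an adjusted p under 0.05 as the threshold. Each animal is a replicate. CPM are counts over the TMM-scaled library size, and SE are those implied by the F statistic. Alternatives used limma 3.58.1 and DESeq2 1.42.0, other scaling, no filter, 1 transcript per gene, a replicate block, and each library left out.

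The 8 genes and all lists were chosen with earlier results of these data known, so they give no independent support. Named were the 8 genes, up to 4 genes of each list with the smallest p, any tested gene of the antibody receptor and the survival and homing lists, and the 5 most similar profiles to JCHAIN and to PIGR. XBP1, EPCAM, BANK1, ELL2, CLDN4, MRC1, the untested B cell markers, the variable segments and the neighbours of PIGR were chosen after their values were seen. ITGB7, whose symbol is tied to 2 gene IDs, is counted but not described. Of the B cell list, 1 gene is not reported here. On simulated data for pregnant against control (18603 transcripts), the share recovered was 4.05% for 74 transcripts changed 1.5-fold, 50% for 70 changed 2-fold and 94.4% for 54 changed 4-fold, with 3 false among 92 calls. Only 200 transcripts were simulated as changed, while 4009 passed in the data, so these shares need not hold for the real test.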

Additional observations from a re-analysis of the deposited data

Results flagged for a closer look

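Among the named genes, 132 groups of 4 animals were searched for a single animal far from the other 3, and 10 were found, where chance gives about 1 in 20. Pregnant replicate 3, highest in 6 of the 8 genes, also stood apart for 3 immune genes. It had 0.926 CPM of CXCL13, against 0.425 to 0.488 CPM in the other pregnant animals, 7.64 CPM of CCR7, against 2.41 to 3.11 CPM, and 18.3 CPM of DAPP1, against 14.3 to 14.8 CPM. Pregnant replicate 1 had 318 CPM of IRF1, against 505 to 538 CPM in the other pregnant animals. Pregnant replicate 4 had 15.7 CPM of ELL2, against 10.9 to 11.5 CPM, and pregnant replicate 2 had 10.24 CPM of MRC1, against 6.86 to 7.33 CPM. Control replicate 1 had 1.42 CPM of IL6, against 0.597 to 0.659 CPM in the other controls, and 0.746 CPM of TNF, against 0.199 to 0.286 CPM. Control replicate 2 had 0.210 CPM of CD40LG, against 0.0996 to 0.115 CPM in the other controls. Control replicate 4 had 153 CPM of TGFBR2, against 88.6 to 99.0 CPM.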

How the results depend on the processing

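Of 47 named genes that passed, 35 passed in all 15 alternatives and 12 lost the call in at least 1. Of the 8 genes, 2 to 4 rose when 1 library was left out, against 4 in all libraries; 2 rose without pregnant replicate 2 or any single control. Leaving out 1 library gave 1265 to 2017 lower transcripts. Without control replicate 4, rises numbered 7 for B cell, 5 for plasma cell and 4 for antibody receptor genes, against 6, 6 and 5. Transcytosis genes had 2 rises, PIGR regulators 8, survival and homing 9 and T cell markers 7, against 1, 9, 12 and 8. Falls numbered 5 for epithelial and 0 for macrophage and dendritic cell markers, against 4 and 1. With library totals only, 3284 transcripts were lower and 1661 higher, against 1898 and 2111, so that 33.6% of calls were higher, against 52.7%, and the median of all transcripts moved by −0.129. The replicate numbers did not pair the animals (correlations −0.0932 to 0.186, and 1 of 4 numbers best with its own). With the replicate block 2070 transcripts rose and 1813 fell, 3 of the 8 genes rose, and adjusted p was 0.136 for JCHAIN. The direction of FCAMR turned with RLE size factors (0.0018), no filter (0.0084), DESeq2 (7.36e-04), voom (0.103) and the replicate block (0.0942), and ran from −0.21 to 0.32 with 1 library left out. That of CCR10 turned with library totals (−0.0104), voom (−0.0825) and the replicate block (−0.044), and ran from −0.24 to 0.46 with 1 library left out. With 1 library left out, CCL25 ran from −0.30 to 0.0803 and TGFBR2 from −0.12 to 0.17. The cause was not tested for any of these. In simulation, with far fewer changed transcripts than passed in the data, 4.05% of changes of 1.5-fold were recovered. BLK and CD79A rest on few reads.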

Other observations

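Within the pregnant group the summed markers of other leukocytes ranked the animals much as the genes of antibody-secreting cells did. The T cell sum was 91.5, 141, 162 and 119.8 CPM in pregnant replicates 1 to 4, the natural killer and cytotoxic sum 114, 119.02, 127 and 77.5 CPM, and the plasmacytoid dendritic cell sum 184, 275, 406 and 171 CPM. Replicate 3 was highest and replicate 2 next in each, as for POU2AF1, MZB1, JCHAIN and TNFRSF17.

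A further unnamed gene beside PIGR, 2.68 kb upstream of it (Entrez gene 100621682), had 2, 0, 7 and 0 reads in pregnant replicates 1 to 4, against 671, 90, 971 and 11 reads in control replicates 1 to 4. Control replicates 1 and 3 were again the high animals and control replicate 4 the lowest control.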
